A study of Mus musculus with 9 samples.

Results

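The 8 genes described here are from immortalised Cebpb-ko mouse embryonic fibroblasts (MEFs) and are Lrrc3b, Pla2r1, Hephl1, Agt, Prg2, Crmp1, Sult4a1 and Tal1. They were chosen by their read counts, as genes near 0 in every library of at least 1 cell line and clearly counted in another, and they are 8 of the 23337 genes in the count table, of which 18725 had at least 1 count. As the same counts chose the genes, their differences between groups are given as a description, and no test of them is used as support. The cells lack C/EBPβ (strain background C57BL/6 x 129) and were stably transfected with rat C/EBPβ-LAP (LAP), with rat C/EBPβ-LIP (LIP) or with the empty vector (EV) in the pcDNA3 or pSV2Zeo backbone, under Zeocin selection. All groups thus share the Cebpb knockout and the selection, and EV is the control. RNA was sequenced from 3 libraries per group, 9 in all. Whether the libraries of a group came from separate cultures or clones is not given in the sources used here, so that p-values measure only the spread between these libraries.

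LAP and LIP are made from the same Cebpb mRNA by translation from different start codons. Both carry the leucine zipper and DNA-binding region, whereas LIP lacks most of the part that activates transcription. The products of most of the 8 genes are best known from cells other than fibroblasts. Lrrc3b encodes a leucine-rich repeat membrane protein. Pla2r1 is a receptor for secreted phospholipases A2 and belongs to the mannose receptor family. Hephl1 is a copper-containing ferroxidase related to hephaestin and ceruloplasmin. Agt is angiotensinogen, from which renin releases the precursor of angiotensin II. Prg2 is the major basic protein of eosinophil granules. Crmp1 transmits semaphorin signals to the cytoskeleton of growing axons, Sult4a1 is a sulfotransferase-like protein of the brain, and Tal1 is a transcription factor required for blood formation.

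The reads counted on genes summed to 24839139 to 33522082 per library. CPM are counts divided by a library size that edgeR corrected with its TMM factors, which lay between 0.949 and 1.10. The floor used for a gene without reads is 3 counts per library, or 0.0879 to 0.122 CPM, and it covers the error of counting alone, because the reads carry no molecular identifiers and several may stem from 1 molecule. Mouse Cebpb itself had 684 to 1077 counts in the 9 libraries, EV included, and gene counts do not show whether these reads lie in the deleted part or come from the rat insert, so that they do not check the labels. The fibroblast markers summed to 30281 to 33235 CPM in EV, 25743 to 36742 CPM in LAP and 15435 to 26544 CPM in LIP, with Fn1 the most counted of the 10. One of them, Lum, was at 0 in all 3 LIP libraries. In LIP against EV the log2 fold change was -0.83 for Col1a1 and -1.09 for Col1a2, but -0.28, -0.07 and 0.02 for Fn1, Vim and S100a4. It was also negative for the other markers, Pdgfra, Pdgfrb, Thy1, Dcn and Lum. None of the 10 had an adjusted p under 0.05 by edgeR's quasi-likelihood test. In bulk RNA, fewer cells of a kind and less RNA per cell cannot be told apart.

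**Figure D1:**
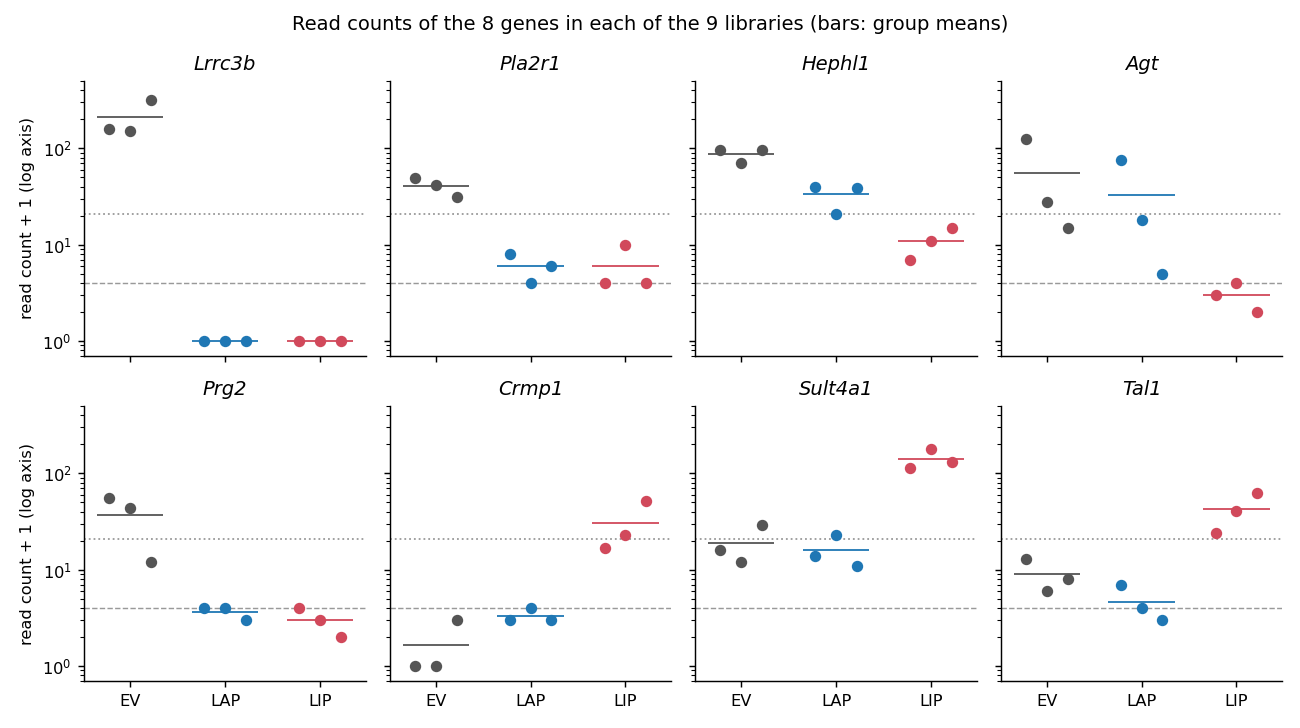
Read count + 1 (log axis) of each gene in the 3 EV, 3 LAP and 3 LIP libraries, with points for libraries, in the order of their numbers, and bars for group means. The dashed line marks 3 counts and the dotted line 20 counts. Lrrc3b has 0 counts in all 6 LAP and LIP libraries, whereas Hephl1 steps down over the groups and Crmp1, Sult4a1 and Tal1 are highest in LIP.

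A group was called off when all its 3 libraries had 3 counts or fewer, on when all 3 had at least 20 counts, and in between otherwise. Of the 8 genes, 4 were off in at least 1 group and 5 had a group that was on. Both held only for Lrrc3b, which was on in EV and off in LAP and LIP. Agt was off only in LIP, Prg2 was off in LAP and LIP, and Crmp1 was off in EV and LAP, but none of these 3 genes had 20 counts in every library of its highest group. Pla2r1, Hephl1, Sult4a1 and Tal1 were off in no group. The name switch-like is therefore met in the strict sense by 1 of the 8 genes. Agt, Prg2 and Crmp1 have an off group and miss only the limit of 20 counts. Pla2r1, Hephl1, Sult4a1 and Tal1 show differences of degree. Just outside the limits were Crmp1, with a lowest LIP library of 16 counts, Agt and Prg2, with lowest EV libraries of 14 and 11 counts, and Tal1 and Pla2r1, whose highest LAP libraries had 6 and 7 counts. In the whole table, 2 genes were off in 1 group and on in another, or 0.0107% of the counted genes. The second gene was Glra2, a subunit of the glycine receptor, with 272, 459 and 198 counts in LAP, 0, 2 and 0 in EV and 1, 1 and 0 in LIP.

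Low and high levels, taken without the limits for on and off, were shared between the groups in 3 ways. In Lrrc3b, Prg2 and Pla2r1, LAP and LIP were both low and EV was high. In Crmp1, Sult4a1 and Tal1, EV and LAP were both low and LIP was high. Agt and Hephl1 were lowest in LIP and highest in EV, with LAP in between. EV was the highest group of 5 genes and LIP of 3 genes, and LAP was the highest group of none of the 8.

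The promoters of 6 of the 8 genes were found in RefSeq (GRCm38.p6), as windows from 250 bases before to 50 after a transcription start, with 2 starts each for Crmp1 and Tal1 and thus 8 windows. The 250 bases before the start are shown for Lrrc3b, the gene with the clearest off state, and for the 3 genes whose windows hold a searched motif. They run 5′ to 3′ on the strand of the gene, and capitals mark a match to TTGCNNAA (the pair of half-sites bound by C/EBP proteins), to CCAAT or to TATAAA on either strand.
Lrrc3b, chr14:15438988-15439237, minus strand: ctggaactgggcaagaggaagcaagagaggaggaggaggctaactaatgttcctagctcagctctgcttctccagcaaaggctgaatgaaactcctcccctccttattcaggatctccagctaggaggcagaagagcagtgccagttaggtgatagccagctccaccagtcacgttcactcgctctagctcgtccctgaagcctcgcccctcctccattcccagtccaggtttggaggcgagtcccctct
Agt, chr8:124569707-124569956, minus strand: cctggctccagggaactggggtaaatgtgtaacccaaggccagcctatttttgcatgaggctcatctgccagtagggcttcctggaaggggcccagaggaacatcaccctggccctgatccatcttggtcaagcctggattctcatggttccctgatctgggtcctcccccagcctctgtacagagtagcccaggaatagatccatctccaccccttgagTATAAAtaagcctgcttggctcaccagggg
Hephl1, chr9:15112109-15112358, minus strand: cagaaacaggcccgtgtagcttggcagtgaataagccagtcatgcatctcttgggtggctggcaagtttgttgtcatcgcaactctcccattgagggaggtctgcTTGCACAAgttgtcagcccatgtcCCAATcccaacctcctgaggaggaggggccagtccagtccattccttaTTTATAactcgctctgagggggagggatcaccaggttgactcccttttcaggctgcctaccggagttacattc
Tal1, chr4:115056176-115056425, plus strand: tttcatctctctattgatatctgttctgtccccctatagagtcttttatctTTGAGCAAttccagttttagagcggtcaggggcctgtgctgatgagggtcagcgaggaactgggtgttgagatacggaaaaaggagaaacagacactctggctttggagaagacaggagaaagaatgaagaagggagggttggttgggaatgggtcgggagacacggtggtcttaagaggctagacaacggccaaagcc
TTGCNNAA was found in 2 of the 8 windows, at base -145 of Hephl1 and at base -199 of the first Tal1 start on the opposite strand, counted from the start. Of all 32851 promoter windows, 10.8% hold it. CCAAT was found in 1 of the 8 windows (Hephl1), against 37.4% of all windows. TATAAA was found in 2 of the 8 (Agt at base -30 and, on the opposite strand, Hephl1 at base -73), against 13.6%. None of the 3 motifs overlapped another there, and the window of Lrrc3b holds none of them. Prg2 and Sult4a1 were not matched. The ratio of observed to expected CpG pairs ranged from 0.0446 in Agt, at percentile 5.64 of all windows, to 0.955 at the first Crmp1 start, at percentile 91.4, and was 0.373 in Lrrc3b, close to the median of 0.384 over all windows. The 8 windows thus include promoters poor and rich in CpG. These matches are descriptions of the letters in the windows and show no binding.

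Lrrc3b (chromosome 14, 15357515 to 15438987, minus strand, 4 exon blocks) had 157, 152 and 317 counts in the EV libraries. It had 0 counts in each of the 3 LAP and the 3 LIP libraries. The mean was 6.59 ± 2.36 CPM in EV (SD, n = 3) and the highest EV library was 1.90 times the lowest. Against the floor of 3 counts per library, Lrrc3b was at least 63.5-fold higher in EV than in LAP and at least 62.3-fold higher in EV than in LIP. Per kilobase of exon, Lrrc3b had the highest level of the 8 genes in any group, with 3.25 CPM per kb in EV. Sult4a1 in LIP followed with 1.95 and Prg2 in EV with 1.43. Whether the counting covered each gene in full was not tested, which limits levels set side by side between genes. Lrrc3, the paralog of Lrrc3b, had 4 to 5 counts in the EV and LAP libraries and 5, 22 and 10 counts in LIP.

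Pla2r1 (chromosome 2, 60417543 to 60553326, minus strand, 30 exon blocks) had 48, 41 and 30 counts in EV. In LAP it had 7, 3 and 5 counts and in LIP 3, 9 and 3 counts. All EV libraries were above all others, and LAP and LIP overlapped. The means were 1.29 ± 0.361 CPM in EV, 0.170 ± 0.0556 CPM in LAP and 0.171 ± 0.108 CPM in LIP (SD, n = 3 each). The ratio of summed counts, scaled by library size, was 7.42 between EV and LAP (95% exact counting interval 4.32 to 13.7) and 7.30 between EV and LIP (4.25 to 13.5). Between LIP and LAP it was 1.02, with an interval from 0.463 to 2.23, within which a difference could not be detected at this depth.

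Prg2 (chromosome 2, 84980461 to 84983632, plus strand, 6 exon blocks) had 54, 43 and 11 counts in EV. In LAP it had 3, 3 and 2 counts and in LIP 3, 2 and 1 counts. Every EV library was above every LAP and LIP library, but EV replicate 3 stood well below the other two. The means were 1.196 ± 0.758 CPM in EV, 0.0914 ± 0.0169 CPM in LAP and 0.0734 ± 0.0456 CPM in LIP (SD, n = 3 each). By summed counts EV was 12.6 times LAP (6.18 to 29.98) and 16.6 times LIP (7.37 to 46.2). Within EV the highest library was 5.21 times the lowest, and of 1116 genes with like counts 1.43% had a spread in EV at least as wide. Of the eosinophil markers, Ear1 and Ear6 were at 0 in every library, Prg3 had 1 count in all and Epx at most 2 counts in a library. Ccr3 had 1 to 8 counts in each library, and Il5ra had 5, 3 and 5 counts in EV, 6, 6 and 5 in LAP and 4, 14 and 5 in LIP. The sum of the 6 markers was 0.249 to 0.410 CPM in EV, 0.359 to 0.481 CPM in LAP and 0.323 to 0.524 CPM in LIP.

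Hephl1 (chromosome 9, 15051841 to 15112170, minus strand, 20 exon blocks) had 95, 70 and 94 counts in EV. In LAP it had 39, 20 and 38 counts and in LIP 6, 10 and 14 counts. The 3 groups did not overlap, and LAP lay between EV and LIP. The means were 2.76 ± 0.186 CPM in EV, 1.11 ± 0.353 CPM in LAP and 0.342 ± 0.104 CPM in LIP (SD, n = 3 each). By summed counts EV was 2.50 times LAP (1.97 to 3.19), LAP was 3.18 times LIP (2.10 to 4.97) and EV was 7.95 times LIP (5.43 to 12.02). Besides Hephl1, Crmp1 was the only one of the 8 genes whose 3 groups did not overlap, and there 2 of the groups were at 3 counts or fewer. The highest EV library of Hephl1 was 1.14 times the lowest, the most even of the 7 genes counted in every EV library.

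Agt (chromosome 8, 124556587 to 124569706, minus strand, 5 exon blocks) had 123, 27 and 14 counts in EV. In LAP it had 75, 17 and 4 counts and in LIP 2, 3 and 1 counts. EV and LAP overlapped and spread widely, and all LIP libraries were below all others. The means were 1.74 ± 1.83 CPM in EV, 1.02 ± 1.14 CPM in LAP and 0.0707 ± 0.0343 CPM in LIP (SD, n = 3 each). The ratio of summed counts was 25.2 between EV and LIP (11.3 to 69.6) and 15.8 between LAP and LIP (6.98 to 44.0). These intervals cover counting error only and not the wide spread between libraries. The highest library was 9.33 times the lowest in EV and 15.6 times in LAP, and a spread at least as wide was seen in 0.356% of 1125 genes with like counts in EV and in 0.0865% of 1156 genes in LAP.

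In both EV and LAP it was the library numbered 1 that was highest for Agt and the one numbered 3 that was lowest. Within a number, EV was above LAP in all 3 cases, by 1.65, 1.63 and 2.77 times. Without EV replicate 1 the ratio of mean CPM between EV and LIP fell from 24.7 to 9.94. Lum, the fibroblast marker at 0 in LIP, had 45, 14 and 3 counts in EV, and LAP gave 22, 1 and 3, with library 1 again the highest. Its part in the level of Agt was not tested. Alb, the most counted of the hepatocyte markers, had 3, 2 and 1 counts in EV, 17, 3 and 2 in LAP and 0 in each LIP library, so that it too was highest in library 1 of EV and LAP, and its part in the level of Agt was not tested. The 6 hepatocyte markers summed to 0.111 to 0.146 CPM in EV, 0.144 to 0.555 CPM in LAP and 0 to 0.0655 CPM in LIP, and in LIP none of the 6 hepatocyte markers had more than 3 counts in a library.

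Crmp1 (chromosome 5, 37242058 to 37292163, plus strand, 15 exon blocks) had 16, 22 and 51 counts in LIP. In EV it had 0, 0 and 2 counts, and LAP gave 2, 3 and 2. LIP was above all other libraries, and LIP replicate 3 was the highest. The means were 1.01 ± 0.555 CPM in LIP, 0.0195 ± 0.0338 CPM in EV and 0.0811 ± 0.0239 CPM in LAP (SD, n = 3 each). The ratio of summed counts was 12.9 between LIP and LAP (6.01 to 33.0) and 48.3 between LIP and EV, where the 2 counts of EV leave an interval from 13.0 to 405. These 2 counts came from EV replicate 3. Without it the ratio of mean CPM could only be set against the floor, as at least 9.87-fold. LAP lay above EV in CPM without overlap, although both were at or under 3 counts in each library and no fold between them is given.

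Sult4a1 (chromosome 15, 84076097 to 84105754, minus strand, 8 exon blocks) had 114, 178 and 130 counts in LIP. EV gave 15, 11 and 28 counts, and LAP 13, 22 and 10. Sult4a1 was thus counted in all 9 libraries, and EV and LAP overlapped. The means were 4.89 ± 0.843 CPM in LIP, 0.564 ± 0.224 CPM in EV and 0.520 ± 0.234 CPM in LAP (SD, n = 3 each). LIP was 8.49 times EV (6.38 to 11.5) and 9.52 times LAP (6.99 to 13.3) by summed counts. Between EV and LAP it was 1.12, with an interval from 0.741 to 1.70.

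Tal1 (chromosome 4, 115056426 to 115071755, plus strand, 6 exon blocks) had 23, 40 and 62 counts in LIP. EV gave 12, 5 and 7 counts, and LAP 6, 3 and 2. All LIP libraries were above the others. The means were 1.42 ± 0.540 CPM in LIP, 0.254 ± 0.104 CPM in EV and 0.122 ± 0.0569 CPM in LAP (SD, n = 3 each). LIP was 5.66 times EV (3.63 to 9.16) and 11.5 times LAP (6.23 to 23.7) by summed counts. EV was 2.04 times LAP (0.962 to 4.61) and the highest LAP library just passed the lowest EV library. Within a number, EV was above LAP in all 3 cases, by 2.02, 1.71 and 2.77 times. Of the 7 haematopoietic markers in the table, only Cd34, with 518 to 948 counts, and Itga2b, with 128 to 416 counts, had more than 5 counts in a library. Their sum was 29.3 to 39.8 CPM in EV, 25.6 to 28.2 CPM in LAP and 27.2 to 36.0 CPM in LIP. Tubb3 likewise made up most of the neuronal markers, whose sum was 66.1 to 91.0 CPM in EV, 54.9 to 98.3 CPM in LAP and 57.2 to 81.4 CPM in LIP. This sum, and so mainly Tubb3, did not stand higher in LIP with Crmp1 and Sult4a1, and it does not show the other neuronal markers. Syp had 8, 8 and 18 counts in EV, 15, 24 and 12 in LAP and 10, 33 and 15 in LIP. The remaining neuronal markers in the table had at most 2 counts in a library.

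**Figure D2:**
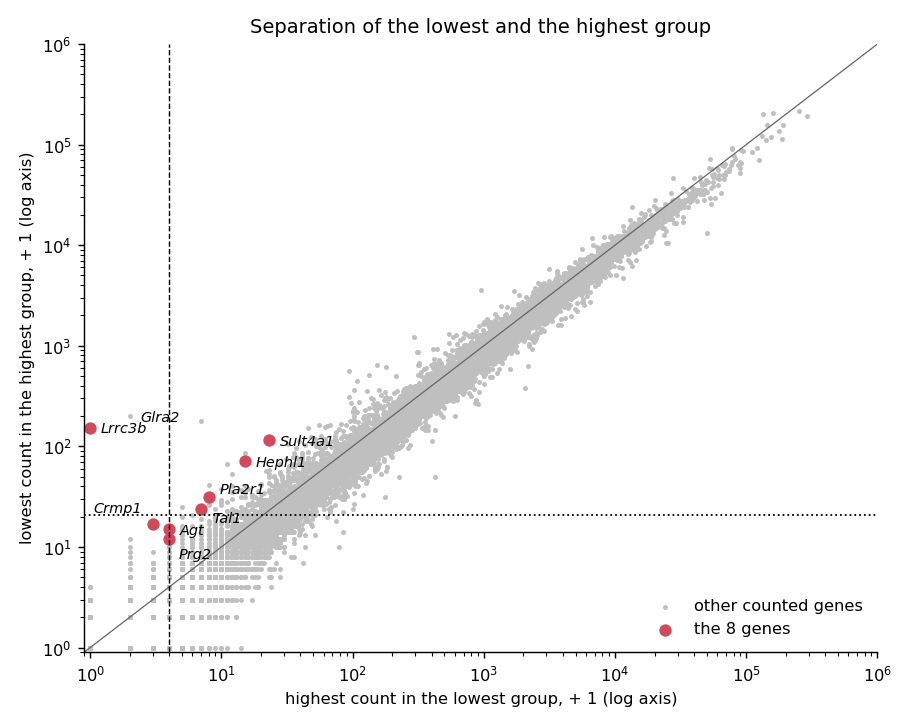
For each counted gene, the highest count in its lowest group (x axis) against the lowest count in its highest group (y axis), both + 1 on log axes, with the lowest and highest group set by mean CPM. The dashed line marks 3 counts, the dotted line 20 counts and the diagonal equal values. Only Lrrc3b and Glra2 lie in the upper left field. Agt, Prg2 and Crmp1 lie below it, and Pla2r1, Tal1, Hephl1 and Sult4a1 to its right, with Hephl1 at 14 and Sult4a1 at 22 counts in the lowest group.

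To place the 8 genes among all others, the lowest count in the highest group was divided by the highest count in the lowest group, taken as at least 3. This measure was chosen after the values had been seen. Of the 11848 genes whose mean reached 20 counts in a group, Glra2 had the widest gap, at 66.0, and Lrrc3b the second, at 50.7. Rpl39l, a paralog of a ribosomal protein gene, followed with 29.5. Crmp1 with 5.33, Sult4a1 with 5.18 and Hephl1 with 5 held ranks 9 to 11, and they were among 11 genes with a gap of at least 5. Agt with 4.67 and Pla2r1 with 4.29 held ranks 14 and 15. Tal1 was at rank 22 and Prg2 at rank 25, with gaps of 3.83 and 3.67. Thus 19 genes outside the list had gaps as wide as that of Prg2, among them Mfap5, Kcnk1, Cadm3 and Ddit4l.

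The 3 comparisons share groups, and EV stands in both LAP against EV and LIP against EV, so the members' values are set side by side. In LAP against EV, CPM of the groups did not overlap in 5 of the 8 genes, 4 lower and 1 higher in LAP, against 7.57% of all genes tested. In LIP against EV this held for all 8, 5 lower and 3 higher, against 15.6%. In LIP against LAP it held for 5 genes, 2 lower and 3 higher, against 12.8%. With the threshold of 0.05 on edgeR's adjusted p, 2 of the 8 genes were called in LAP against EV, against 0.0606% of all genes. All 8 were called in LIP against EV, against 0.396%, and 4 in LIP against LAP, against 1.05%. Nothing is read from these counts, because the genes were selected on the same values. With at least 1 count in the 6 libraries as the limit, 8, 8 and 7 of the genes were tested in LAP against EV, LIP against EV and LIP against LAP. A stricter filter on low counts (edgeR's filterByExpr) left 6, 7 and 4 of them.

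Over the 9 libraries, log2(CPM + 0.5) of the 3 genes that were highest in LIP ran closely together, with Pearson's r of 0.943 between Crmp1 and Tal1, 0.912 between Sult4a1 and Tal1 and 0.906 between Crmp1 and Sult4a1. Among the genes highest in EV, r was 0.938 between Prg2 and Pla2r1 and 0.930 between Lrrc3b and Pla2r1, but 0.446 between Agt and Lrrc3b. These values describe 9 libraries in 3 groups, include the differences between the groups, and belong to genes that were chosen for such differences.

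The genes of the table most like each of the 8 were sought by the same r, among those whose mean reached 20 counts in a group. Nearest to Prg2 was Zic1, a zinc finger transcription factor, with r = 0.989 and 65, 38 and 6 counts in EV against 0 to 2 elsewhere, and then Klhl6 with r = 0.976. Both repeat the low value of EV replicate 3. Nearest to Agt were Grm8, a metabotropic glutamate receptor (r = 0.955), and Klk10, a kallikrein-related peptidase (r = 0.952), which were still counted in LIP, with 7 to 13 and 15 to 19 counts. Nearest to Lrrc3b were Pla2r1 itself (r = 0.930) and Tspyl5 (r = 0.926), and nearest to Pla2r1 were Rnf39 (r = 0.984) and Tmem154 (r = 0.947). Hephl1 was followed by Fam131a (r = 0.961) and Klhl5 (r = 0.949), and the latter, at 1589 to 3004 counts, changed far less in size.

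On the LIP side, the gene most like Crmp1 was Ddx3y (r = 0.979), an RNA helicase of the Y chromosome, with 4305 to 5570 counts in EV and LAP and 5892, 7734 and 12925 in LIP. Next was Lmo4 (r = 0.964), a LIM-only protein. Tal1 was closest to Hap1 (r = 0.982), with 58, 74 and 117 counts in LIP, and to Kdm5d (r = 0.974), a histone demethylase gene also on the Y chromosome, with 1430, 2785 and 4355 counts in LIP and 845 to 1267 elsewhere. In these 4 genes, as in Crmp1 and Tal1, LIP replicate 3 was the highest library. Sult4a1 was closest to Ddx41 (r = 0.95) and Plekha5 (r = 0.939), both highest in LIP replicate 2, as Sult4a1 was.

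Genes next to the 8 on the chromosome were not used to choose them, and were taken from the test over the whole table. Up to 5 genes on each side, with a start within 500 kb of the start of the gene, gave 61 neighbours (positions from RefSeq on GRCm38.p6). Of these, 19 had 3 counts or fewer in every library and none was off in 1 group and on in another. By edgeR's quasi-likelihood test and a Benjamini-Hochberg adjusted p under 0.05, 0 of 49 neighbours tested differed in LAP against EV (6 at an unadjusted p under 0.05, and 0 by DESeq2). In LIP against EV it was 0 of 51 (3 unadjusted, and 1 by DESeq2), and in LIP against LAP 1 of 52, which was lower in LIP. The median log2 fold change of the neighbours was -0.10, 0.03 and 0.13 in these comparisons, against 0.02, 0.04 and 0.02 over all genes tested.

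**Figure D3:**
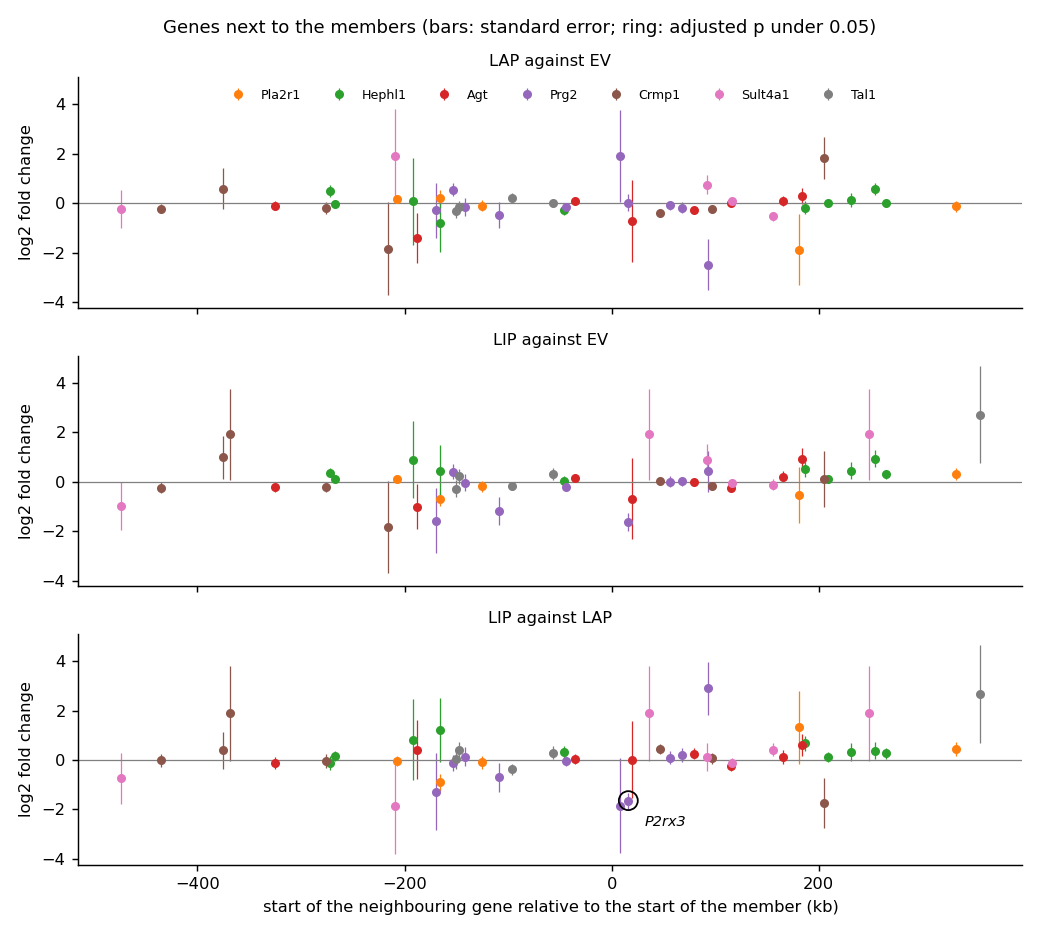
log2 fold change (y axis, bars for the standard error) of the neighbouring genes tested, against the distance of their start from the start of the gene they neighbour (x axis, kb, counted along the chromosome), in the 3 comparisons. Colours mark the gene they neighbour and the ring marks P2rx3, at 16.1 kb from Prg2, the only neighbour past the threshold, with a log2 fold change of -1.64 in LIP against LAP.

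The neighbour that changed was P2rx3, an ATP-gated ion channel of sensory neurons, whose start lies 16.1 kb from that of Prg2. P2rx3 averaged 391 counts in EV and 362 in LAP, against 114 in LIP. From LAP to LIP its log2 fold change was -1.64 ± 0.319 (standard error), with an adjusted p = 0.0185 by edgeR's quasi-likelihood test. Leaving out LAP replicate 2 gave an adjusted p of 0.149 for P2rx3, leaving out LIP replicate 1 one of 0.0883, and filterByExpr one of 0.158. In LIP against EV its log2 fold change was -1.63 (adjusted p = 0.0803), and in LAP against EV it was 0.02 (adjusted p = 0.993). Prg2 itself was low in both LAP and LIP, so that in LAP Prg2 was off while P2rx3 was counted at the level of EV, within its standard error of 0.352. Prg3, the eosinophil granule gene between Prg2 and P2rx3, had 1 count in the 9 libraries. With the replicate number as a block, a pairing that the labels do not state, 2 neighbours were lower in LIP than in LAP. The second was Cd302, near Pla2r1, with a log2 fold change of -0.78 (adjusted p = 0.0122). Without the block the adjusted p of Cd302 was 0.348 by edgeR's quasi-likelihood test.

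Lrrc3b had no neighbour within 500 kb. The nearest gene of the table on each side was Nek10, with a start 554 kb before that of Lrrc3b, and Oxsm, 881 kb after it, both chosen after their values had been seen. Slc4a7, 655 kb before it and beyond Nek10, had 1648 to 2677 counts. Nek10 had 0 to 3 counts in each library. Oxsm had 300 to 591 counts, and its log2 fold change was 0.19 in LAP against EV and 0.09 in LIP against EV (adjusted p = 0.918 and 0.903 by edgeR's quasi-likelihood test). Oxsm was thus counted in all 6 libraries in which Lrrc3b had no read. Of the 10 neighbours of Hephl1, which was lowest in LIP, all had a positive log2 fold change in LIP against EV, with a median of 0.38, but 0 passed the threshold of edgeR's test or of DESeq2 (1 at an unadjusted p under 0.05). Crmp1 is overlapped at its end by Evc, with 1946, 1382 and 1850 mean counts in EV, LAP and LIP, and as the strand setting of the counting is not given in the sources used here, reads of both genes in the overlap cannot be told apart.

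The pathway and family partners of the 8 genes were taken from a list of 82 genes made from textbook knowledge. Of these, 34 had 3 counts or fewer in every library, 32 were on in at least 1 group and none was off in 1 group and on in another. By the same test, 0 of 66 partners tested passed in LAP against EV (3 at an unadjusted p under 0.05, and 0 by DESeq2). In LIP against EV it was 0 of 64 (14 unadjusted, 5 higher and 9 lower, and 1 by DESeq2). In LIP against LAP it was 1 of 63 (11 unadjusted, and 3 by DESeq2). Over all genes tested, 0.0606%, 0.396% and 1.05% passed in the 3 comparisons. Unadjusted, it was 593 of 18156, 1998 of 18203 and 1686 of 18166 genes. The median log2 fold change of the partners was -0.04, -0.16 and -0.13, against 0.02, 0.04 and 0.02 over all genes tested. With the replicate number as a block, 9 partners passed in LIP against LAP, 2 higher and 7 lower, and 0 in LAP against EV. The labels do not state that the number pairs libraries. Over all genes the block called 1183 in LIP against LAP, against 190 without it.

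**Figure D4:**
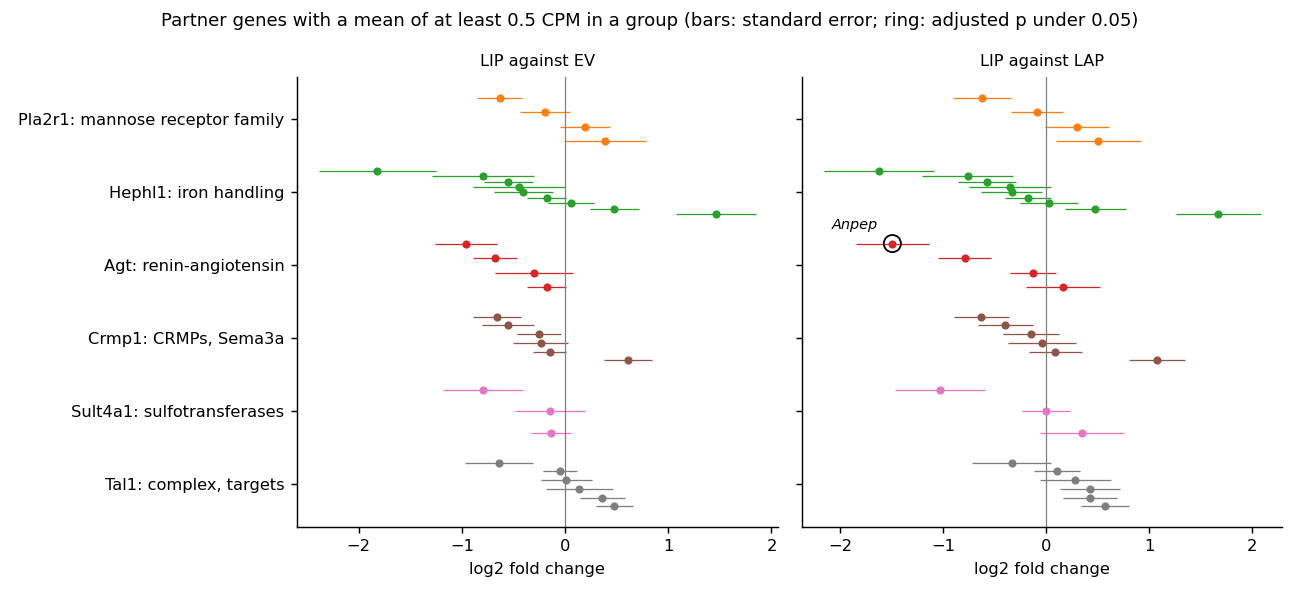
log2 fold change (x axis, bars for the standard error) of the partner genes with a mean of at least 0.5 CPM in a group, by the gene they belong to (y axis), in LIP against EV and LIP against LAP. No partner of Lrrc3b or Prg2 reached that level, and the ring marks Anpep, with a log2 fold change of -1.49, the only partner past the threshold.

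The partner that passed was Anpep, an aminopeptidase that trims angiotensin peptides. It had 58, 51 and 67 counts in EV, 107, 65 and 71 in LAP and 24, 34 and 25 in LIP. All LIP libraries were below the others. From LAP to LIP the log2 fold change of Anpep was -1.49 ± 0.354 (standard error), with an adjusted p = 0.0471 by edgeR's quasi-likelihood test, and in LIP against EV it was -0.96 (adjusted p = 0.233). Its adjusted p rose to 0.229, 0.133, 0.106 and 0.0681 without LAP replicate 1, LAP replicate 2, LIP replicate 1 and LIP replicate 2, to 0.0856 with total counts as the only scaling and to 0.165 with filterByExpr.

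Of the 12 partners of Agt, 1 was lower in LIP than in LAP and the other 8 tested were not past the threshold. Ren1, a renin gene, and the receptor gene Agtr1b were at 0 in every library. The receptor gene Agtr1a had 14, 6 and 6 counts in EV, 4, 1 and 3 in LAP and 3, 1 and 1 in LIP. Agtr2 had at most 4 counts in EV, 17, 2 and 0 in LAP and 0 in LIP, with library 1 highest in EV and LAP as for Agt. Agt was therefore counted in EV and LAP without any read of Ren1. With the block, Atp6ap2, the prorenin receptor, was lower in LIP than in LAP (log2 fold change -0.79, adjusted p = 0.00232), with 1236 to 1987 counts in LIP and 2119 to 3936 in LAP. Without the block the adjusted p of Atp6ap2 was 0.218 by edgeR's quasi-likelihood test.

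Of the 12 partners of Hephl1, 0 passed by edgeR in any comparison without the block (3 at an unadjusted p under 0.05 in LIP against EV and 2 in LIP against LAP), and DESeq2 called Slc40a1 in both. With the block, Slc40a1, the iron exporter ferroportin, was higher in LIP than in LAP (log2 fold change 1.55, adjusted p = 3.25e-06). Steap4, a metalloreductase, was lower (-1.72, adjusted p = 2.14e-10), as were the ferroxidase Cp (-0.91, adjusted p = 0.00566) and the transferrin receptor Tfrc (-0.65, adjusted p = 0.0126). By edgeR's quasi-likelihood test without the block, adjusted p was 0.0552 for Slc40a1, 0.224 for Steap4, 0.679 for Cp and 0.563 for Tfrc. These genes are named after their values were seen. Slc40a1 had 200, 315 and 834 counts in LIP, 115, 222 and 82 in LAP and 134, 168 and 209 in EV, and LAP replicate 2 was above LIP replicate 1 in counts but not in CPM. Heph had 1 count in all 9 libraries.

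The partners of Crmp1 were 8 genes, and 0 passed by edgeR without the block (3 at an unadjusted p under 0.05 in LIP against EV and 2 in LIP against LAP), while DESeq2 called Dpysl5 in LIP against LAP. With the block, Dpysl5, a member of the same protein family, was higher in LIP than in LAP (log2 fold change 1.04, adjusted p = 4.45e-06) and Nrp1, the semaphorin 3A receptor, was lower (-0.68, adjusted p = 0.00596). By edgeR's quasi-likelihood test without the block, adjusted p was 0.0592 for Dpysl5 and 0.441 for Nrp1. Dpysl5 had 5315, 6478 and 11990 counts in LIP and 2911 to 5986 in EV and LAP. It was thus counted far more often than Crmp1, and LIP replicate 3 was again the highest library. Dpysl2, the most counted family member after Dpysl5, had 582 to 1025 counts in LIP and 790 to 1780 in EV.

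The other lists held fewer counted genes. Of the mannose receptor family, Mrc2 was lower in LIP than in LAP with the block (log2 fold change -0.62, adjusted p = 0.0136). Without the block the adjusted p of Mrc2 was 0.499 by edgeR's quasi-likelihood test. Of the listed secreted phospholipases A2, Pla2g12a was the only one with more than 7 counts in a library. Of the 11 partners of Sult4a1, 0 passed by edgeR or DESeq2 (1 at an unadjusted p under 0.05, in LIP against LAP), and none of the other sulfotransferases exceeded 40 counts in a library. Of the 17 partners of Tal1, 0 passed by either tool (2 at an unadjusted p under 0.05 in LIP against EV and 1 in LIP against LAP). Runx1 and the TAL1 complex genes Lmo1 and Lmo2 were at 0 in every library, Gata1 had at most 2 counts, and Gata2, Gata3, Ldb1 and Lmo4 were on in all groups. Tcf3 and Tcf12, broadly expressed partners of TAL1, had at most 9 counts in a library, and whether the annotation counts them and Runx1 in full was not tested. In LIP Tal1 was therefore counted together with Gata2 and Ldb1 but without reads of Lmo2. Gata2 and Ldb1 were counted, and Lmo2 was without reads, in EV and LAP too. Whether Lmo2 is counted in full was likewise not tested.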

How the data were processed

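RNA of 9 libraries was sequenced (TruSeq RNA v2, single reads of 50 bases). Per the labels and the study's methods, the authors used bcl2fastq 1.8.3, aligned with TopHat 1.4.1 to mm10 and counted with HTSeq 0.5.4 on RefSeq genes. The authors deposited raw counts per gene symbol, not normalized, and 0 columns of the table were left unused. The handling of reads with several alignments is not given in the sources used here. The column names match the sample titles, which give the group.

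The members and lists were chosen with earlier results of these data known. Each comparison used edgeR 4.0.16 in R 4.3.3 (TMM, quasi-likelihood test, no covariates) on the 6 libraries concerned, over all genes with 1 count or more in them, with Benjamini-Hochberg adjustment and a threshold of 0.05. The test was tried on simulated data. Ratios of summed counts carry exact 95% conditional binomial intervals for counting error only. Positions were found for 23054 of the 23337 symbols. Named are the 8 members, neighbours and partners past the threshold, the 2 genes most like each member, up to 3 further genes per strict pattern, and marker lists. Further genes, among them those called only with the replicate block or by DESeq2, were named outside this rule after their values were seen. Of the other marker lists, endothelium summed to 1.61 to 3.64 CPM, podocyte (mostly Podxl) to 398 to 906 CPM and epithelium (mostly Krt8) to 389 to 797 CPM over the libraries.

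The labels number the libraries 1 to 3 in each group. Deviations from group means of same-numbered libraries had r of 0.223 to 0.546 in LAP against EV and 0.421 to 0.577 in LIP against LAP. In LIP against EV the range was -0.119 to 0.311. The labels do not state that a shared number pairs libraries, and these r come from the same data as the tests. A pairing in the first 2 comparisons would also pair LIP with EV, so values with the block are an alternative only. Alternatives were DESeq2 1.42.0, its size factors, total counts only, filterByExpr, a fit of all 9 libraries together, the replicate block, each library left out in turn, and other limits for on, off and the promoter window. Figures were drawn with matplotlib 3.10.9.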

Additional observations from a re-analysis of the deposited data

How the results depend on the processing

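The counts of genes past the threshold were 11 in LAP against EV, 72 in LIP against EV and 190 in LIP against LAP. With filterByExpr they were 3, 4 and 2. The first 2 were 26 and 321 with DESeq2, and 5 and 157 with all 9 libraries in a single model. With total counts only, the last 2 were 36 and 113. With the replicate block they were 54, 467 and 1183. Without single libraries they ranged from 6 (without EV replicate 2) to 62 (without LAP replicate 3), from 22 (without EV replicate 2) to 367 (without LIP replicate 3) and from 7 (without LAP replicate 2) to 448 (without LIP replicate 3).

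Among neighbours, LIP against EV went from 0 to 1 with DESeq2, with all 9 libraries and with the replicate block, and 0 to 2 without single libraries. LIP against LAP went from 1 to 0 with filterByExpr, to 2 with the replicate block and to 0 to 2 without single libraries. Among partners, LIP against EV went from 0 to 1 with DESeq2, to 2 with the replicate block and to 0 to 3 without single libraries. LIP against LAP went from 1 to 3 with DESeq2, 2 with all 9 libraries, 0 with filterByExpr and total counts only, 9 with the replicate block, and 0 to 5 without single libraries (5 without LAP replicate 3). In LAP against EV both stayed at 0 in every alternative run. All block values rest on a shared number only, and in LIP against EV 1 same-numbered pair had r = -0.119. The causes were not tested.

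The 1 member that was off in a group and on in another became 3 with off at up to 10 counts (Lrrc3b, Pla2r1, Tal1), 4 with on from 10 counts (Lrrc3b, Agt, Prg2, Crmp1) and 1 to 3 without single libraries. It was 3 without EV replicate 3 (Agt and Prg2 added) and 2 without LAP replicate 1 (Tal1), LIP replicate 1 (Crmp1) or LIP replicate 2 (Pla2r1). The 2 such genes of the table became 1 with off at 0, 23 with off at up to 10 counts, 12 with on from 10 counts and 2 to 6 without single libraries. Of the 8 ratios of mean CPM, all 16 values under the 2 other scalings moved by less than the spread between replicates. Without single libraries, ratios of Agt, Hephl1, Crmp1, Sult4a1 and Tal1 moved by more at least once. The widest ranges were 9.94 to 34.1 for Agt and 9.87 to 60.6 for Crmp1. No direction changed, but the genes were chosen for this gap and the 2 groups did not overlap, so nothing is read from that. The 2 windows with TTGCNNAA became 0 with the 150 bases around the start. At 3 counts a library, differences between 2 low groups could not be resolved.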

Other observations

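A wider limit, on from 10 counts with off still at 3, gave 12 genes in the table, and 8 of them were outside the list. Irs4, an insulin receptor substrate, had 21, 32 and 11 counts in LIP, 7, 4 and 0 in LAP and 0, 0 and 1 in EV. Samd11 and Zmat4 likewise were lowest in EV or LAP and reached 10 to 25 counts in LIP. Nhedc2, a sodium-proton exchanger, had 36, 55 and 11 counts in LAP, 14, 10 and 11 in EV and 0, 3 and 1 in LIP. Enpp2, which encodes autotaxin, had 33, 11 and 15 counts in EV, 32, 25 and 4 in LAP and 2, 2 and 1 in LIP. Like Agt, Enpp2 was highest in library 1 of both EV and LAP.

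The next 2 genes of the Y chromosome were read after Ddx3y and Kdm5d had come up as the genes most like Crmp1 and Tal1. Uty had 922, 1273 and 2330 counts in LIP and 765 to 1230 in EV and LAP. Eif2s3y had 524, 597 and 144 counts in LIP and 339 to 1001 in EV and LAP, so that LIP replicate 3 was the highest library for Uty and the lowest for Eif2s3y. The cause was not tested.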
